A study of Mus with 6 samples.

Results

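Skeletal and developmental transcription factors are the proteins that tell a mesenchymal cell where in the body it lies and whether it becomes cartilage, bone, tendon or joint lining. Members were taken by gene symbol from 31 families (Hox, Sox other than Sox9, Runx and Cbfb, Fox, Tbx, Prrx, Msx, Dlx, Six4 and its relatives, Pitx, Meis, Pbx, Lhx, Emx, Alx, Twist, Gata, Klf, Nfi, Nfat, Mef2, Ebf, Osr, Pax, Barx, Scx, Mkx, Tcf4, Tcf12, Tcf21, Nr2f and Nr4a), in rows of the table whose gene labels match their counts. This gave 72 genes of 11659, of which 14 were Hox genes and 58 were not. The count table holds RNA-seq of chondrocytes from knee cartilage of C57BL/6J mice, 3 samples labelled WT and 3 from Sirt6 conditional knockout animals (Sirt6 cKO). By the study's methods, cells digested from cartilage were cultured and used at first passage in every experiment. In the cKO, floxed Sirt6 alleles are cut by a tamoxifen-inducible Cre driven by the Col2a1 promoter, so Cre acts in cells that use that promoter, and the study's methods put the animals at 12 weeks of age. The tamoxifen schedule of these samples is not given in the sources used here. Sirt6 is a nuclear deacetylase that acts on histones.

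As background, the Hox genes lie in clusters on separate chromosomes, and their order along the DNA follows the order in which they are used from head to tail and along the limb. Meis and Pbx proteins bind DNA beside Hox proteins. Runx2 with its partner Cbfb, the Mef2 and Nfat factors and Twist proteins act in chondrocyte maturation and bone formation, while Prrx, Dlx, Lhx and Tbx factors pattern the limb and face. Adult cells of the skeleton keep part of this pattern, which is why these genes are often read as a record of where a cell came from.

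Between 25726958 and 30156935 counts were assigned per sample. Sirt6 itself was at 427, 338 and 362 CPM (TMM-normalized library-scaled counts, the unit of all levels here unless per kilobase is written) in WT 1, 2 and 3, against 36.1, 28.7 and 22.3 in cKO 1, 2 and 3, in keeping with the labels. WT 1 stood apart from the other WT libraries: its log expression correlated at 0.969 and 0.971 with WT 2 and WT 3, which correlated at 0.993 with each other, and its ratio to them fell with exon length (Spearman rho = -0.248 across 11246 genes). Only 6615 of these genes have row labels that match their counts, and in other rows the exon length can belong to another gene. Leaving out WT 1 moved the log2 fold change of 13 of the other 71 members, Hoxa10 aside, by at least 0.2, and their values without it are given beside them. Of 21 chondrocyte markers, 5 had a usable row, and Acan and Col2a1 were not analysed here. Sox9, the main chondrocyte factor, was at 204, 186 and 185 in WT and 265, 246 and 373 in cKO (log2 fold change 0.62, edgeR adjusted p = 0.017), a call lost without WT 3 (adjusted p = 0.0505). Comp, Col11a1 and Ucma were also higher, while Col9a3 was below all WT samples in each cKO sample and did not pass (-0.53, adjusted p = 0.0756). WT levels were near the floor for Ucma (0.068 to 0.25) and Comp (0.47 to 0.93) and low for Col11a1 (5.9 to 7.8). Of 7 synovial fibroblast markers, 4 (Dcn, Lum, Pdgfra and Col1a1) rose and 0 fell. This is 57.1% called, beside 46.8% of all 11246 genes tested (22.5% higher and 24.3% lower). The summed level of the 7 per kilobase was 866 to 871 in WT and 2380 to 2659 in cKO. Col1a1, also an osteoblast marker, made up most of this sum, at 598 to 625 per kilobase in WT and 1441 to 1649 in cKO. Of the other 3, Pdpn was below all WT samples in each cKO sample without passing and Thy1 and Has1 overlapped. Lum was at 0 to 0.136 in WT and 8.28 to 11.01 in cKO. Of 12 osteoblast markers 3 were measured and 3 rose, among them Spp1 and Col1a1, beside 22.5% of all genes tested. The muscle gene Des rose, at 3.54 to 4.03 in WT and 6.85 to 7.68 in cKO, and neither the tendon gene Tnc nor the macrophage gene Cd68 passed. Markers of endothelium, fat and red cells were not analysed here. The part of such markers in the results that follow was not tested, and in bulk samples fewer cells of a type and less RNA per cell cannot be told apart. The labels do not tie samples to animals, though the study's data statement reads as a mouse for each sample, and p-values measure the spread between these samples.

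All 72 members passed the filter on low counts. In the cKO 24 rose, 13 fell and 35 did not pass an edgeR adjusted p of 0.05. This is 51.4% of members, beside 46.8% of all 11246 genes tested (22.5% higher and 24.3% lower), so the share called was close to the background. Among the members 33.3% were higher and 18.1% lower. With a fold over 2 or under 0.5 as well, 10 members were higher and 4 were lower, 19.4% of members beside 15.9% of all genes (8.72% higher and 7.15% lower). The median log2 fold change was 0.24 over the members and 0.00 over all genes. The genotypes were fully separated in 62.5% of members, with the cKO above in 30 and below in 15, beside 60.9% of all genes (30.2% above and 30.6% below). In the 6615 tested genes whose row labels match, the same shares were 49.8% called (24% higher and 25.8% lower), 16.4% past the fold (8.84% and 7.57%) and 63.7% separated (31.8% above and 32% below). A permutation test of 3 against 3 cannot go below p = 0.1, so single members rest on the fit across all genes. The plot of fold changes by class shows rises and falls together in 5 of the 9 classes.

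**Figure D1:**
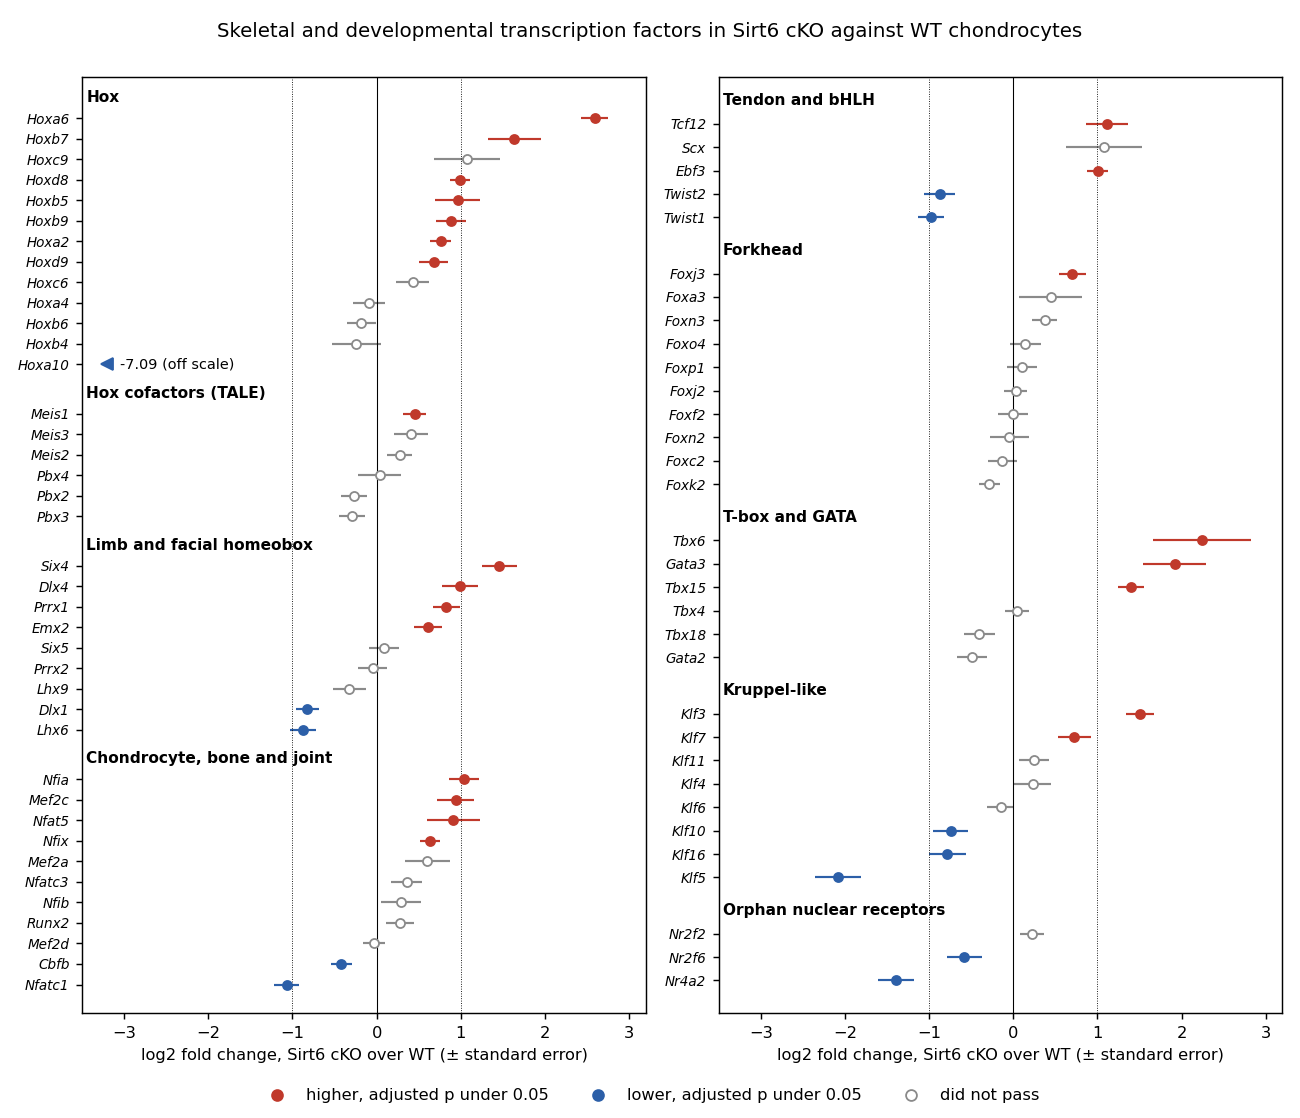
Log2 fold change of 71 of the 72 members, cKO over WT, with its standard error, grouped by class. Red points are higher and blue points lower at an edgeR adjusted p under 0.05, open points did not pass, dotted lines mark a fold of 2, and Hoxa10 lies off the scale at -7.09. Both directions occur in 5 of the 9 classes, and 9 of the 10 forkhead members are open.

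Among the 14 Hox genes, 7 were higher, 2 were lower and 5 did not pass, which is 64.3% called beside 46.8% of all genes tested (22.5% higher and 24.3% lower). The direction differed between genes of the HoxA cluster. The median log2 fold change was 0.72. The HoxA cluster on chromosome 6 held the largest changes in both directions. Hoxa6 (chr6:52205431-52208722 on the minus strand, in the table's coordinates, which fit GRCm38) was at 17.6, 21.96 and 20.5 in WT and at 124, 137 and 102 in cKO. All 3 cKO samples lay far above all 3 WT samples, and the log2 fold change was 2.59 ± 0.16 (SE), edgeR adjusted p = 1.14e-05. Hoxa10 (chr6:52231197-52240854), a gene of the lumbar region and proximal limb, went the other way: WT libraries held 66, 103 and 141 raw counts of it, and cKO libraries 0, 2 and 0. This is 164-fold lower from the summed counts, with a 95% exact interval of 45.1 to 1363 that covers counting error only. The edgeR adjusted p was 8.01e-05, and the fitted log2 fold change of -7.09 depends on the prior count. Both cKO counts came from cKO 2, and without it the fitted value was -9.70.

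Hoxa2, at the anterior end, was at 30.9, 32.1 and 29.9 in WT and 50.3, 51.3 and 56.4 in cKO (log2 fold change 0.76 ± 0.13, edgeR adjusted p = 0.0016). Hoxa2 shares 11.02% of its exon bases with Hoxa3 on the same strand. Hoxa4 lies between Hoxa2 and Hoxa6 and overlapped between genotypes, at 24.7, 16.3 and 16.99 in WT and 18.4, 19.4 and 16.6 in cKO (-0.09, adjusted p = 0.732, and 0.13 without WT 1). Hoxa4 and Hoxa6 lie within the span of Hoxa3 but share no exon bases with it. The RefSeq gene Hoxaas3 also overlaps the span of Hoxa6, by 3292 bases. Shared exon bases were checked only against genes in the count table, so not against Hoxaas3.

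In the HoxB cluster on chromosome 11, 3 of 5 genes rose and 0 fell, 60% called beside 46.8% of all genes tested. Hoxb9, the most abundant Hox gene per kilobase in WT, was at 82.9, 82.4 and 78.3 in WT and 139, 119 and 191 in cKO (0.88 ± 0.18, edgeR adjusted p = 0.00444). Hoxb7 was low, at 1.21, 2.13 and 1.92 against 7.05, 5.62 and 3.81 (1.64 ± 0.32, adjusted p = 0.00351). Hoxb5 went from 4.82, 8.47 and 10.7 to 15.03, 16.7 and 15.3 (0.96 ± 0.26, adjusted p = 0.0166), a call lost without cKO 2, and 0.71 without WT 1. Hoxb6, which lies between Hoxb7 and Hoxb5, had 21.4, 26.5 and 27.1 in WT and 19.9, 26.3 and 19.9 in cKO, and the groups overlapped (-0.18, adjusted p = 0.407). Hoxb4 overlapped as well, at 3.57, 4.304 and 4.13 against 3.35, 4.62 and 2.19 (-0.24, adjusted p = 0.525). Both HoxD genes on chromosome 2 rose. Hoxd8 was tightly grouped at 75.1, 75.1 and 72.1 in WT and 154, 141 and 146 in cKO (0.99 ± 0.12, adjusted p = 0.000333). Hoxd9 was at 36.4, 24.8 and 26.5 against 50.1, 47.0 and 43.2 (0.68 ± 0.17, adjusted p = 0.012), a call lost without cKO 1. Neither HoxC gene passed. Hoxc9 had its 3 cKO samples, 1.51, 1.497 and 1.62, above the WT values of 0.748, 1.05 and 0.397, with adjusted p = 0.0513 (0.0473 with the replicate number as a block), and it passed in 10 of 16 alternatives. Hoxc6 overlapped, at 19.4, 23.1 and 22.6 against 28.4, 37.0 and 22.4 (0.43, adjusted p = 0.101). It passed without cKO 3 (0.61, adjusted p = 0.033) and was 0.23 without cKO 2.

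**Figure D2:**
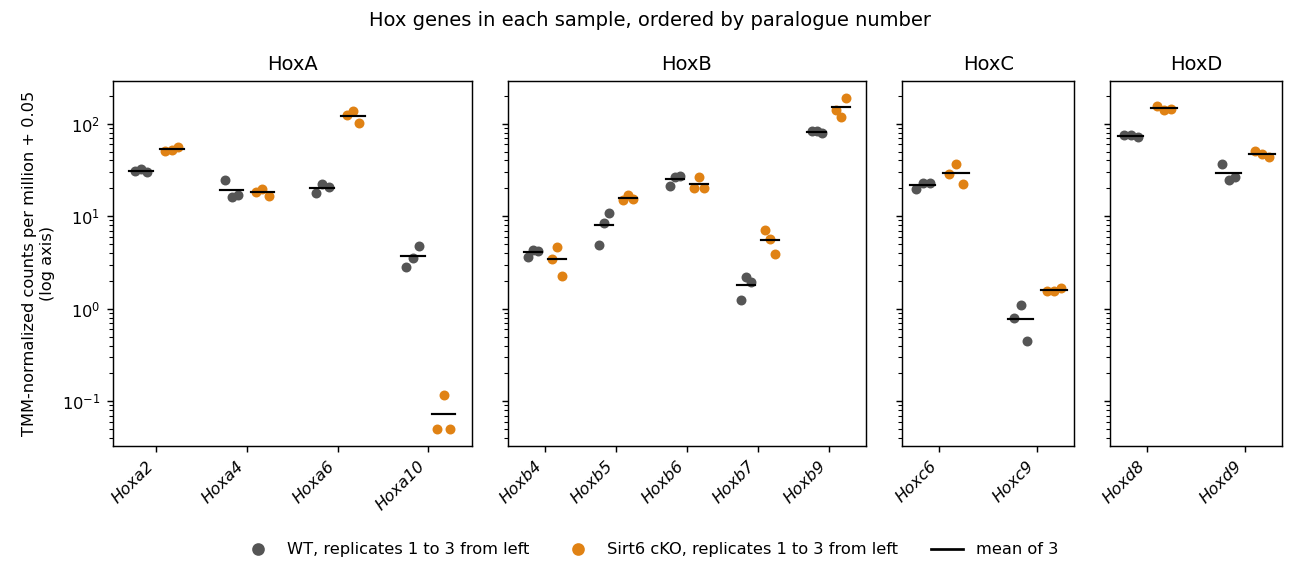
TMM-normalized CPM of 13 of the 14 Hox genes in each of the 6 samples, plotted after adding 0.05 on a log axis, by cluster and in order of paralogue number. Grey points are WT and orange points cKO, with a line at the mean of 3. Hoxa6 rises and Hoxa10 falls to near 0 while Hoxa4, Hoxb4 and Hoxb6 overlap.

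Of the Hox partners, 1 of 6 rose and 0 fell, 16.7% called beside 46.8% of all genes tested. Meis1 was at 24.4, 26.4 and 27.9 in WT and 34.5, 34.1 and 39.2 in cKO (0.45 ± 0.14, edgeR adjusted p = 0.0239), and this call was lost in 5 of the alternatives, among them without WT 2 and without each cKO library. Meis3, the most abundant Meis gene per kilobase, overlapped at 34.2, 22.2 and 21.7 against 38.1, 35.3 and 30.0 (0.40, adjusted p = 0.131, 0.0479 with the block, and log2 fold change 0.65 without WT 1). The 3 Pbx genes lay between -0.30 and 0.04 and none passed. Pbx2 was the most abundant of them per kilobase, with log2 fold change -0.27 and adjusted p = 0.185. The Polycomb and trithorax proteins that keep Hox genes off or on moved in both directions: of 17 measured, 5 rose, 4 fell and 8 did not pass, with a median of 0.01, and the 52.9% called lay near the 46.8% of all genes. With the replicate block the demethylase Kdm6a also passed (0.62, adjusted p = 0.0322, against 0.53 and 0.16 without it), but its log2 fold change was 0.23 without WT 1. Kdm6b, a demethylase that removes the Polycomb mark, went from 52.2, 55.1 and 53.2 to 163, 154 and 184 (1.64, adjusted p = 3.47e-05). The insulator protein Ctcf, which binds between Hox genes, fell by 0.72 (adjusted p = 0.00338).

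Among limb and facial homeobox genes both directions occurred. Of 9, 4 rose, 2 fell and 3 did not pass, 66.7% called beside 46.8% of all genes tested. Six4, a partner of Eya proteins in muscle and cartilage precursors, was at 24.3, 43.3 and 36.5 in WT and 95.4, 105 and 86.3 in cKO (1.46 ± 0.21, edgeR adjusted p = 0.000824). Its relative Six5 overlapped between genotypes, at 25.3, 23.4 and 21.7 against 27.9, 27.7 and 19.0 (0.08, adjusted p = 0.723). Prrx1, a marker of limb mesenchyme, rose from 184, 259.7 and 261 to 412, 418 and 424 (0.83 ± 0.16, adjusted p = 0.00293, and 0.68 without WT 1). Prrx2 was the most abundant member of this class per kilobase and overlapped, at 179.8, 123 and 124 against 148, 132 and 133 (-0.05, adjusted p = 0.839, and 0.16 without WT 1).

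Dlx genes act in jaw and bone. Dlx1 was at 32.0, 32.6 and 32.1 in WT and 16.7, 17.9 and 19.9 in cKO (-0.82 ± 0.14, edgeR adjusted p = 0.00168). Dlx4 moved the opposite way, from 4.78, 3.49 and 3.44 to 7.46, 8.68 and 7.09 (0.99 ± 0.21, adjusted p = 0.00569). Within a library, Dlx4 per kilobase was 0.177 to 0.247 of Dlx1 in WT and 0.588 to 0.802 in cKO, a pair picked after its values were seen, like the later pairs. Lhx6, used in tooth and jaw, fell from 29.1, 27.2 and 27.8 to 17.9, 14.7 and 13.3 (-0.88 ± 0.16, adjusted p = 0.0024), with no overlap. Emx2, used in the shoulder blade and the urogenital tract, rose from 17.8, 17.3 and 18.1 to 25.4, 23.1 and 32.5 (0.61 ± 0.16, adjusted p = 0.0157).

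Factors of chondrocyte, bone and joint numbered 11, of which 4 rose, 2 fell and 5 did not pass. The 54.55% called lay near the 46.8% of all genes tested. Runx2, the switch to hypertrophy and bone, overlapped at 47.3, 71.2 and 66.2 in WT and 75.4, 69.8 and 79.1 in cKO (0.28 ± 0.17, edgeR adjusted p = 0.202, and 0.12 without WT 1). Its partner Cbfb fell from 172, 194 and 198 to 138, 135 and 149 (-0.42 ± 0.12, adjusted p = 0.0226), a call lost on leaving out any of 4 libraries. Mef2c, which acts with Runx2 in hypertrophy, was low and rose from 4.45, 7.01 and 5.29 to 10.2, 12.5 and 9.59 (0.94 ± 0.22, adjusted p = 0.00805). Mef2d was the most abundant Mef2 gene per kilobase and overlapped (-0.03, adjusted p = 0.884). Mef2a was higher in all 3 cKO samples but did not pass (0.60, adjusted p = 0.0955). Its log2 fold change was 0.66 with the block (adjusted p = 0.0174) and 0.33 without WT 1, which lay far below the other WT samples.

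The Nfat family, whose members are turned on by the phosphatase calcineurin except for the osmotic stress factor Nfat5, had 1 rise and 1 fall. Nfatc1, the osteoclast and articular progenitor factor, fell from 35.3, 30.4 and 35.1 to 14.2, 16.9 and 17.1 (-1.07 ± 0.15, edgeR adjusted p = 0.0007). Nfat5 was at 199, 502 and 509 in WT and 652, 784 and 840.1 in cKO (0.91 ± 0.31, adjusted p = 0.04). WT 1 was far below the other WT samples for this gene, the longest member, with an exon length of 18378 bases. Without WT 1 the log2 fold change of Nfat5 was 0.59, and the call was lost with scaling by total counts and without any 1 cKO library. Nfatc3 had log2 fold change 0.36 and did not pass (adjusted p = 0.138, and 0.18 without WT 1). Of 3 calcineurin genes and regulators measured, 2 rose, 66.7% called beside 46.8% of all genes tested. They were the catalytic subunit Ppp3ca (0.58, adjusted p = 0.0438) and the inhibitor Cabin1 (0.52, adjusted p = 0.00865). The Ppp3ca call was lost with total counts, without WT 3 and without any 1 cKO library (adjusted p up to 0.135), and its log2 fold change was 0.385 without WT 1. Among nuclear factor I genes Nfia rose from 23.3, 34.8 and 33.0 to 59.6, 58.1 and 69.3 (1.04 ± 0.18, adjusted p = 0.00196, and 0.88 without WT 1). Nfix, the most abundant of the family per kilobase, rose from 418, 365 and 369 to 595, 578 and 611 (0.63 ± 0.12, adjusted p = 0.00272), and Nfib overlapped (0.29, adjusted p = 0.344, and 0.05 without WT 1).

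Tendon and bHLH factors numbered 5, of which 2 rose, 2 fell and 1 did not pass, 80% called beside 46.8% of all genes tested. Both Twist genes, which hold back Runx2 in precursors, fell: Twist2 went from 206, 133 and 134 to 87.8, 80.2 and 90.2 (-0.88 ± 0.19, edgeR adjusted p = 0.00554, and -0.64 without WT 1). Twist1 went from 108, 84.2 and 82.8 to 49.1, 40.6 and 49.9 (-0.98 ± 0.16, adjusted p = 0.00145). Tcf12, an E protein that pairs with Twist1, rose from 89.6, 160.3 and 156 to 265, 241 and 372 (1.11 ± 0.25, adjusted p = 0.00667, and 0.89 without WT 1). In a library Tcf12 was 0.286 to 0.654 times Twist1 per kilobase in WT and 1.86 to 2.56 times in cKO. Id1, which binds E proteins and keeps them from DNA, fell from 178, 115 and 119 to 18.2, 14.5 and 23.9 (-2.87, adjusted p = 5.22e-05). Of the 9 cofactors and inhibitors measured, 2 rose (the LIM cofactor Ldb2, 2.16, and the corepressor Tle2, 2.93), Id1 fell and 6 did not pass. This is 33.3% called, beside 46.8% of all genes tested. Ebf3 rose from 43.5, 48.8 and 50.7 to 92.5, 95.9 and 98.5 (1.00 ± 0.13, adjusted p = 0.000412). Scx, the tendon factor, was near the floor at 0.997, 0.576 and 0.463 against 0.822, 1.90 and 1.52 and overlapped (1.07, adjusted p = 0.0786, and 1.44 without WT 1, where it passed).

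T-box and GATA genes gave 3 rises and 0 falls among 6, so the 50% called lay near the 46.8% of all genes tested. Tbx15, a factor of the shoulder blade and limb skeleton, was at 59.2, 72.6 and 73.5 in WT and 173, 158 and 210.1 in cKO (1.40 ± 0.16, edgeR adjusted p = 0.000233). Tbx4, which marks the hind limb, was level at 18.4, 18.8 and 17.1 against 20.0, 17.8 and 18.3 (0.05, adjusted p = 0.811). Gata3 was low and rose from 1.08, 0.915 and 0.661 to 2.02, 3.52 and 4.46 (1.92 ± 0.38, adjusted p = 0.00371). Tbx6, a gene of the early paraxial mesoderm, was lower still, at 0.540, 0.136 and 0.264 against 1.06, 2.36 and 0.945 (2.25 ± 0.58, adjusted p = 0.013), and lost its call without cKO 2. Without WT 1 the log2 fold change of Tbx6 was 2.84. Gata2 was below all WT samples in each cKO sample but did not pass (-0.49, adjusted p = 0.0529, and -0.47 and 0.0472 with the block), and it passed in 4 of 16 alternatives.

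**Figure D3:**
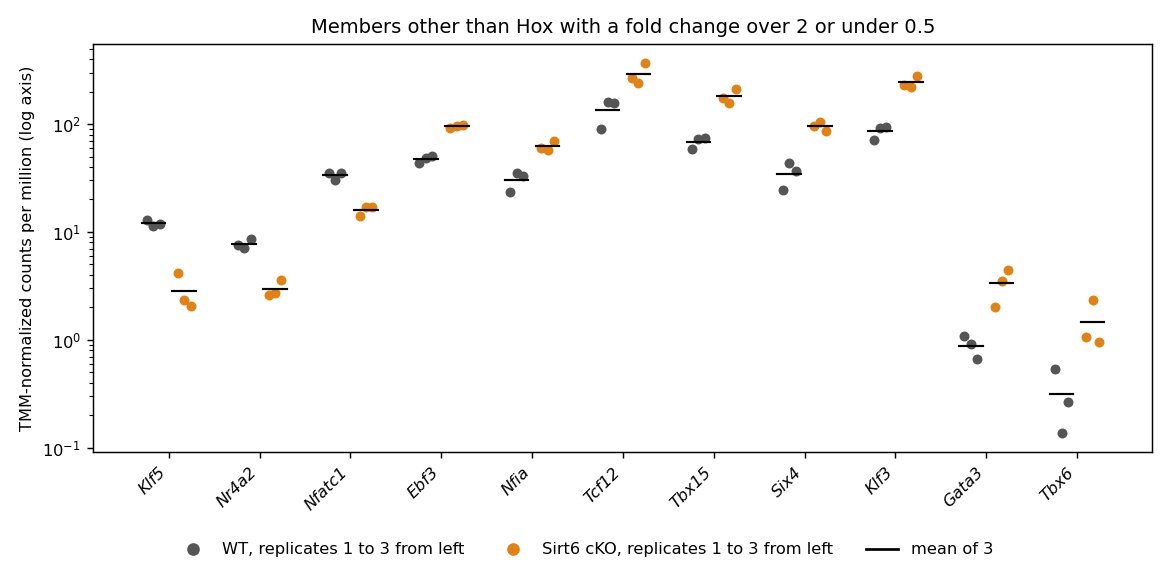
TMM-normalized CPM on a log axis for the 11 members other than Hox with an adjusted p under 0.05 and a fold over 2 or under 0.5, in each of the 6 samples. Grey points are WT and orange points cKO, with a line at the mean of 3. The genotypes do not overlap in any of them. Gata3 and Tbx6 have the lowest means in WT, and Tbx6 has the lowest in cKO.

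Forkhead genes had the smallest share of calls of the 9 classes: 1 of 10 rose, 0 fell and 9 did not pass. Thus 10% were called, beside 46.8% of all genes tested. Foxj3 rose from 67.7, 87.8 and 86.0 to 124, 116 and 153 (0.70 ± 0.16, edgeR adjusted p = 0.00766). Foxc2, a cartilage and vessel factor and the most abundant forkhead gene per kilobase over all samples, was at 80.3, 67.7 and 70.9 against 65.4, 54.4 and 80.4 (-0.13, adjusted p = 0.553). The other 8 lay between -0.28 and 0.45.

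Krüppel-like factors fell and rose by similar counts, 3 and 2 of 8, 62.5% called beside 46.8% of all genes tested. Klf5 had the largest fall outside Hox, from 12.9, 11.4 and 11.96 to 4.14, 2.33 and 2.06 (-2.09 ± 0.27, edgeR adjusted p = 0.000503). Klf3 rose from 70.6, 92.2 and 93.8 to 228, 222 and 280.1 (1.51 ± 0.16, adjusted p = 0.00018). Klf3 was 3.80 to 5.62 times Klf5 per kilobase in WT and 38.3 to 94.4 times in cKO. Klf7 rose by 0.72 (adjusted p = 0.016), while Klf16 fell by 0.78 (adjusted p = 0.0184, and by 0.55 without WT 1) and Klf10 fell by 0.74 (adjusted p = 0.0175), and each of these 3 calls was lost on leaving out a cKO library. Klf4, one of the factors used to reprogram cells, was at 243, 245 and 232 against 253, 201 and 391 and overlapped (0.23, adjusted p = 0.419).

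Of the orphan nuclear receptors, 2 of 3 fell, 66.7% called beside 46.8% of all genes tested. Nr4a2, an immediate early receptor, went from 7.56, 7.12 and 8.59 to 2.60, 2.69 and 3.58 (-1.39 ± 0.22, edgeR adjusted p = 0.0012). Nr2f6 went from 125, 75.3 and 78.9 to 68.4, 59.4 and 58.8 (-0.58 ± 0.20, adjusted p = 0.0435), and was -0.31 without WT 1, which stood high. The call was lost without any 1 cKO library and with upper-quartile scaling or limma-voom. This gene shares 54.4% of its exon bases with a gene on the other strand. Nr2f2, a mesenchymal patterning receptor, was higher in all 3 cKO samples but did not pass (0.23, adjusted p = 0.214). Of 9 immediate early genes measured, 3 rose and 3 fell, 66.7% called beside 46.8% of all genes tested (22.5% higher and 24.3% lower). Among them Atf3 rose by 3.03 (adjusted p = 0.00231, and by 2.12 without cKO 3, the highest library) and Ier3 fell by 1.46 on the log2 scale (adjusted p = 0.00049).

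Per kilobase of exon, which allows levels of different genes to be compared, the most abundant members in WT were Twist2 (119), Klf4 (78.8), Prrx2 (72.9) and Cbfb (64.6). In cKO they were Klf3, Klf4 (92.4), Nfix (80.9) and Prrx2 (70.5). Hoxa6 moved from 11.6 to 69.8 per kilobase. At over 10 per kilobase there were 31 members in WT and 38 in cKO, and 8 were under 1 in each. The plot of levels shows that Twist2 lay above every other member in WT.

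**Figure D4:**
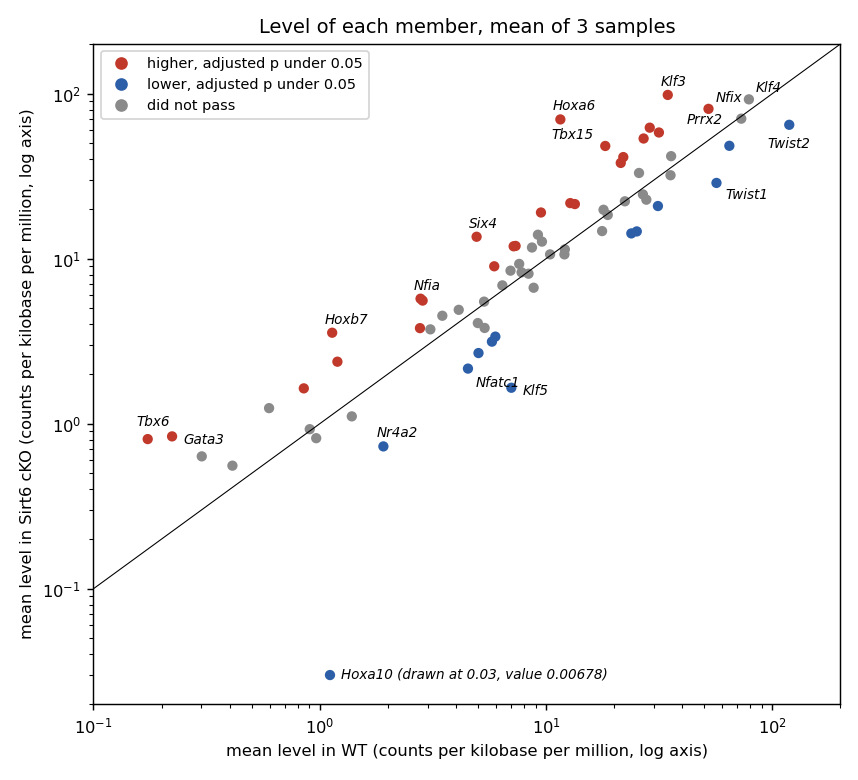
Mean level of each member per kilobase of exon, in CPM, in WT (x axis) and cKO (y axis), both on log axes, with the line of equality. Red members were higher and blue lower at an edgeR adjusted p under 0.05 and grey ones did not pass, and Hoxa10 is drawn at 0.03 with its value of 0.00678 written beside it. Hoxa6 lies far above the line and Hoxa10 and Klf5 far below it.

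Without WT 1, each of the 37 called members kept its call, and Meis3, Pbx3, Scx, Tbx18 and Klf6 passed in addition. Across all genes the ratio of WT 1 to the other WT libraries had a median log2 value of 0.19 in the 2812 genes with the shortest exons and -0.17 in the 2813 with the longest. The Spearman correlation of log2 fold change with exon length was 0.107 across all genes and 0.036 across the members, and genes are not independent replicates. Unlike those of the members, the values across all genes include rows whose exon length can belong to another gene than the counts.

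**Figure D5:**
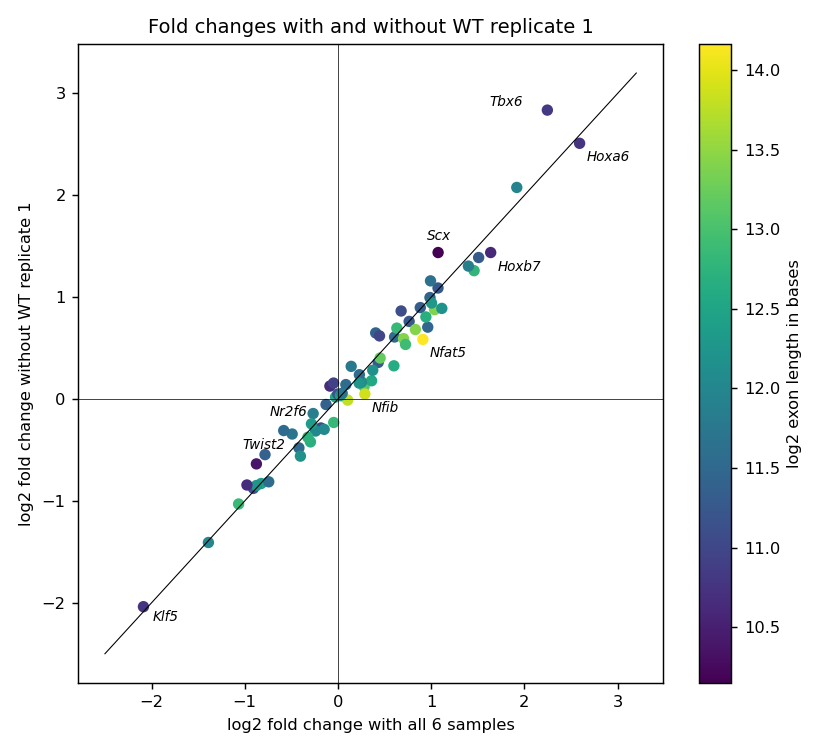
Log2 fold change of 71 members with all 6 samples (x axis) and without WT 1 (y axis), coloured by log2 exon length in bases, with the line of equality. Hoxa10 is left out because it lies off the scale. Of the 71 members 58 lie within 0.2 of the line, Nfat5, Mef2a and Hoxb5 lie farthest below it, and Tbx6, Scx and Nr2f6 farthest above it.

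Symbols that begin like a family but belong to other proteins were 8, and were not counted as members. Among these Runx1t1 rose (2.05, edgeR adjusted p = 0.000847) and Paxip1 fell (-1.01, adjusted p = 0.000569), Gatad1 and Gatad2a fell by 0.66 and 0.77, and 4 did not pass. In rows whose labels and counts are shifted against each other lay 25 further family genes, among them Runx1, Sox4, Osr1, Osr2 and Mkx, which were not analysed here.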

How the data were processed

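RNA-seq was read from knee chondrocytes, by the study's methods cultured to first passage, of 3 WT and 3 Sirt6 cKO samples. The submitters' notes name cutadapt, HISAT2 2.0.5, StringTie and genome build hg19, but the coordinates in the table are mouse: 91.0% of its 11659 genes share at least 0.5 of their joint span with a RefSeq GRCm38.p6 gene, against 9.0% after a shift of 1 Mb, and genes were named this way. The deposited values are raw counts per gene made by the authors, whose counting tool and strand setting are not given in the sources used here. Row labels and counts were compared by the rank correlation of exon length with the counts of the same and nearby rows. Members were taken from identifier numbers 1 to 20900 and 25770 to 48200 (6623 rows), where labels and counts line up. Tests used edgeR 4.0.16 (TMM, filterByExpr, quasi-likelihood test, R 4.3.3), Benjamini-Hochberg over 11246 genes, with log2 fold change and standard error from the same fit. Lists, members and pairs were chosen with earlier results of these data known. Named genes were every Hox gene but 1, each member past a fold of 2 or 0.5, and the most abundant member of each family. The other called members and Mef2a, Nfatc3, Nfib, Tbx4, Six5, Pbx3, Tbx18 and Klf6 were named after their values were seen. Same-numbered samples deviated together (correlations 0.262, 0.104 and 0.136), so a block was tried. Alternatives also used DESeq2 1.42.0 and limma 3.58.1. The test was checked on simulated data. The precision of a value is set by its count and the 3 samples of each genotype. Results for 1 Hox member and some list genes are counted but not reported here.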

Additional observations from a re-analysis of the deposited data

How the results depend on the processing

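Of the 37 called members, 27 kept their call at an adjusted p of 0.05 in each of the 16 other fits that tested them, 18 higher and 9 lower (Hoxa10 was not tested in 1). An exon-length correction was added after seeing the data. Its trend was drawn over all tested rows, including those whose exon length can belong to another gene than the counts. The count of members higher ranged from 20 to 26 and lower from 9 to 16 on leaving out a replicate, Hox genes higher from 6 to 8 and lower stayed at 2, and with the fold threshold 9 to 15 higher and 4 to 5 lower. Requiring at least 10 counts in every sample gave 1 lower Hox gene, since Hoxa10 was removed. An adjusted p of 0.01 left 17 members higher and 9 lower. With the replicate block there were 27 higher and 14 lower members and 8 higher and 2 lower Hox genes. The block kept every call made without it and added Hoxc9, Meis3, Mef2a and Gata2. Upper-quartile scaling moved the members past a fold of 2 from 10 to 15. Some members that did not pass changed sign. With the length correction Hoxa4 was 0.0479, Prrx2 0.056 and Nfib -0.0257. With upper-quartile scaling Prrx2 was 0.0297 and Mef2d 0.0488, and with total counts 0.0134 and 0.0270. On leaving out a replicate Hoxb4 ranged from -0.529 to 0.0113, Hoxa4 from -0.186 to 0.127, Prrx2 from -0.131 to 0.157, Mef2d from -0.0945 to 0.0330, Six5 from -0.00516 to 0.260, Tbx4 from -0.00592 to 0.0841 and Klf4 from -0.0666 to 0.423. The cause was not tested.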
